A study of Mus musculus with 4 samples.

Results

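The aryl hydrocarbon receptor and its best known partners and targets were represented by 8 genes, Ahr, Arnt, Ahrr, Cyp1a1, Cyp1a2, Cyp1b1, Tiparp and Aldh3a1. They were taken as every non-control probe whose gene name in the scanner files is one of these symbols, which gave 13 of 41174 probes. 3T3-L1 is a mouse preadipocyte line that can be driven to form adipocytes with hormones. All cells received insulin, dexamethasone and IBMX, with 0.1% DMSO as the vehicle in every culture, and RNA was taken on day 2 by the sample titles and the study's methods, although the labels' treatment field speaks of a longer exposure. The 4 conditions were DMSO alone, 100 μg/ml bilberry extract, 100 nM delphinidin and 100 nM cyanidin, and there was 1 array per condition, so the differences have no replicate check and no p-value is given. The labels call the cells adipocytes. All 6 adipocyte markers examined (among them Pparg, Fabp4 and Adipoq) and all 5 preadipocyte and fibroblast markers (among them Dlk1 and Pdgfra) were well above background on all 4 arrays. The 3 hepatocyte markers with a value (Alb, Ttr and Apoa1), the 3 endothelial markers and the 3 epithelial markers were well above background on none. Of 4 macrophage markers, Cd68 and Csf1r passed the background test on every array and Ptprc and Emr1 on none. The summed scaled level of the 4 was 0.0912 for DMSO, 0.111 for bilberry, 0.103 for delphinidin and 0.120 for cyanidin. Within this sum Csf1r was at 0.0172 for DMSO and 0.0385 for bilberry, a log2 ratio of 1.16, where Cd68 was at 0.0677 and 0.0638.

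Ahr is a transcription factor that is kept in the cytosol by chaperones until it binds a flat aromatic ligand, such as dioxin, a tryptophan metabolite or certain flavonoids. It then enters the nucleus, pairs with Arnt and binds short DNA elements with the core GCGTG near genes of xenobiotic metabolism. Cyp1a1, Cyp1a2 and Cyp1b1 are cytochrome P450 enzymes that oxidize such ligands, Aldh3a1 is an aldehyde dehydrogenase, and Ahrr and Tiparp are induced repressors of the receptor. In preadipocytes the receptor is known as a brake on differentiation, and Cyp1b1 is known as the main enzyme of its family in mouse embryo fibroblast lines.

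The DNA core that the receptor pair reads was searched in the 250 bases before the annotated start of these genes, as RefSeq gives them for GRCm38.p6. Promoter sequences were matched for 6 of the 8 genes, Arnt, Ahrr, Cyp1a1, Cyp1a2, Cyp1b1 and Tiparp. The letters GCGTG, on either strand, occurred in 28.2% of 32851 promoters of this length. They occurred 3 times at Ahrr, once each at Arnt, Cyp1a1, Cyp1b1 and Tiparp, and not at Cyp1a2, and 2.77% of all promoters held at least 3. The longer form TNGCGTG, which contains the first, occurred once at Ahrr and at none of the other 5, and in 4.10% of all promoters. Sequence beyond these 250 bases was not searched, so matches farther from the start are not counted. A match is only a run of letters, and the arrays measured no binding. The sequences of 4 of these promoters are shown because they contrast targets whose RNA was undetected here (Ahrr and Cyp1a1) with targets that were well above background (Cyp1b1 and Tiparp), with the core or its reverse complement in capitals. The Ahrr sequence lies at chr13:74292332-74292581 on the minus strand, Cyp1a1 at chr9:57697363-57697612 on the plus strand, Cyp1b1 at chr17:79715062-79715311 on the minus strand and Tiparp at chr3:65528197-65528446 on the plus strand.
Ahrr: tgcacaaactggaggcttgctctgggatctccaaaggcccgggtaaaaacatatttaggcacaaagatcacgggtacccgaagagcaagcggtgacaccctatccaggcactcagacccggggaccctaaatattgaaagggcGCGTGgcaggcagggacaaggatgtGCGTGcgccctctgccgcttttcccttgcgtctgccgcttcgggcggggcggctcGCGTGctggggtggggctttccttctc
Cyp1a1: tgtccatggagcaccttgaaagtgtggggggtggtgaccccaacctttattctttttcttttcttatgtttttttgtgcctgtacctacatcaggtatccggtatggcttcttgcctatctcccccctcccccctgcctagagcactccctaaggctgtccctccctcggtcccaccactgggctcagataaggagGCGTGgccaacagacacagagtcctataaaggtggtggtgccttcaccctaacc
Cyp1b1: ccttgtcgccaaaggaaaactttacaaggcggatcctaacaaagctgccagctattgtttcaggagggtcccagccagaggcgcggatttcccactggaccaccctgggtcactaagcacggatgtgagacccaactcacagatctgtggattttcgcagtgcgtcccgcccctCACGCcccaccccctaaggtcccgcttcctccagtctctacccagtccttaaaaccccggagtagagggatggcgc
Tiparp: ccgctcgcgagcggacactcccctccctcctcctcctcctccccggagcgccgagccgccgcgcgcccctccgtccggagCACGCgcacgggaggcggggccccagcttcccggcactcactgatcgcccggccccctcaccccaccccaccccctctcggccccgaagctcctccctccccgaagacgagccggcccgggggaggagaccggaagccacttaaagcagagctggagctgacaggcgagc
Cyp1b1 and Tiparp carry the core as its reverse complement CACGC, and Cyp1a1 carries it as GCGTG.

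Each level below is a scaled signal, the background-subtracted intensity of a probe over the 75th percentile of the array it was read on, so that 1 is the level of that percentile. The 75th percentile was an intensity of 861 for DMSO, 576 for bilberry, 1009 for delphinidin and 1016 for cyanidin. All 4 arrays were on 1 slide and were read in 1 scan. Scaling to 10 spike-in control RNAs instead of the 75th percentile moved every log2 ratio to DMSO by -1.53 for bilberry, 0.26 for delphinidin and 0.23 for cyanidin, so the bilberry ratios depend on the scaling more than the others. The error given for a single spot is the estimate of the scanner software, about 0.20 on the log2 scale for a ratio of bright spots, and it does not cover the spread between cultures. The summed scaled level of the adipocyte markers was 389 for DMSO, 268 for bilberry, 424 for delphinidin and 460 for cyanidin, that of the preadipocyte and fibroblast markers was 371, 375, 357 and 303, and the part of such shifts in the results below was not tested. The markers did not move together within these sums, which take the brightest probe of each gene. At these probes, with bilberry, Fabp4 had a log2 ratio of -0.95 and Adipoq -1.07, where Pparg, Cebpa, Lpl and Plin1 were at 0.02 to 0.50, and Thy1 had -1.20, where Dlk1, Pdgfra, Col1a1 and Col3a1 were at -0.21 to 0.42. Other probes of Pdgfra, Col3a1 and Lpl gave bilberry ratios outside these ranges. With delphinidin and cyanidin Thy1 was at -0.94 and -0.87 at its brightest probe, and Lpl at 0.73 and 0.78. The other adipocyte markers were at -0.19 (Fabp4) to 0.31 (Pparg) with delphinidin and at -0.04 (Fabp4) to 0.65 (Plin1) with cyanidin. In RNA of whole cultures, fewer cells of a type and less RNA per cell cannot be told apart.

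By the scanner software's test of a spot against its background, 8 of the 13 probes were well above it on all 4 arrays, 1 on 3 arrays and 4 on none. The receptor, its partner Arnt, Cyp1b1 and Tiparp were detected on every array, Aldh3a1 on the 3 treated arrays, and Ahrr, Cyp1a1 and Cyp1a2 on none. A probe was called when its ratio was over 2 or under 0.5 and it was well above background on at least 1 of the 2 arrays compared. With bilberry, 1 of the 9 probes that could be compared was higher (Aldh3a1) and 0 were lower, beside 5.74% and 10.2% (16.0% in either direction) of all 24289 probes. With delphinidin, 1 was higher (Aldh3a1) and 1 lower (Ahr), beside 2.73% and 3.23% (5.96% in either direction) of 25115 probes. With cyanidin, 1 was higher (Aldh3a1) and 0 lower, beside 2.16% and 4.01% (6.17% in either direction) of 24909 probes. A share of 1 in 9 probes is too coarse to set apart from these percentages. The median log2 ratio over the 9 probes was 0.10 for bilberry, -0.23 for delphinidin and -0.07 for cyanidin, beside medians of 0.11, -0.03 and -0.02 over all probes compared, and Aldh3a1 lies on the same side of each median at its measured ratio and at its lower bound. Taking the software's error of the ratio as the limit instead of 2-fold, 2 probes were higher and 2 lower with bilberry, beside 42.1% and 31.1% of all probes. With delphinidin 2 were higher and 5 lower, beside 19.8% and 27.5%, and with cyanidin 2 were higher and 3 lower, beside 22.0% and 28.4%. The 3 comparisons share the DMSO array.

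**Figure D1:**
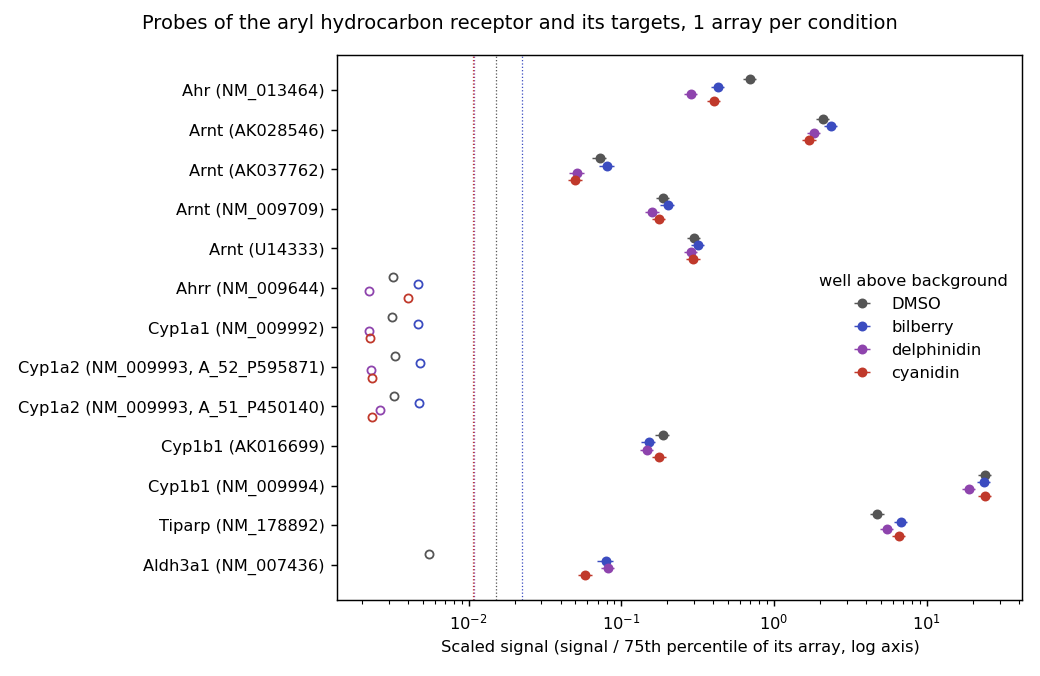
Scaled signal of the 13 probes on a log axis, with 1 point per array and condition, bars for the scanner software's error, filled points for probes well above background and open points for probes that were not. Dotted lines mark, for each array, the dimmest probe that passed the background test. Ahr lies at 0.695 with DMSO and at 0.285 to 0.431 in the treatments, Aldh3a1 is open with DMSO alone, and Ahrr, Cyp1a1 and Cyp1a2 have open points for all conditions.

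Ahr, the ligand-binding receptor, was lower on all 3 treated arrays than on the DMSO array. Its probe (A_51_P449133, NM_013464) lies at chr12:36083324-36083383 of mm8, the build of the files. It was printed at 10 positions on each array, where every other member probe had 1. After spots that the software marked as outliers were left out, the scaled signal was 0.695 ± 0.017 for DMSO (SD over 8 spots), 0.431 ± 0.0091 for bilberry (7 spots), 0.285 ± 0.0065 for delphinidin (8 spots) and 0.405 ± 0.014 for cyanidin (9 spots). DMSO was highest and delphinidin lowest, and the spots of bilberry (0.420 to 0.442) and cyanidin (0.385 to 0.421) met at their ends. Bilberry was above cyanidin at all 10 shared positions, but the log2 ratio of the probe between these arrays was only 0.09 ± 0.20, within the software's error. No treated spot, marked ones included, reached the lowest DMSO spot of 0.652. The log2 ratio to DMSO was -0.69 for bilberry, -1.29 for delphinidin and -0.78 for cyanidin, or 0.619, 0.410 and 0.582 times the DMSO level. Only the delphinidin value passed 2-fold.

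When each printed position was compared with the same position on the DMSO array, all 10 positions were lower in each treatment. The log2 ratios ran from -0.76 to -0.39 for bilberry, where the value nearest 0 came from 1 marked spot, from -1.36 to -1.25 for delphinidin and from -0.85 to -0.68 for cyanidin. These positions share 1 RNA sample per array and are not replicates of a condition. Among 143 detected probes that were printed 10 times, the ratio of Ahr or a lower one was found in 19 for bilberry, 2 for delphinidin and 5 for cyanidin, Ahr included. Among the 21444 probes that passed the background test on every array, 12.2% lay at or below Ahr in the bilberry comparison, 0.625% in that of delphinidin and 3.81% in that of cyanidin, and 302 probes (1.41%) were at or below -0.69 in all 3 treatments. Under spike-in scaling the values were -2.22, -1.03 and -0.55, so that bilberry in place of delphinidin was lowest. Ahr was below DMSO in all 3 treatments under each of the 7 alternative treatments of the signal.

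**Figure D2:**
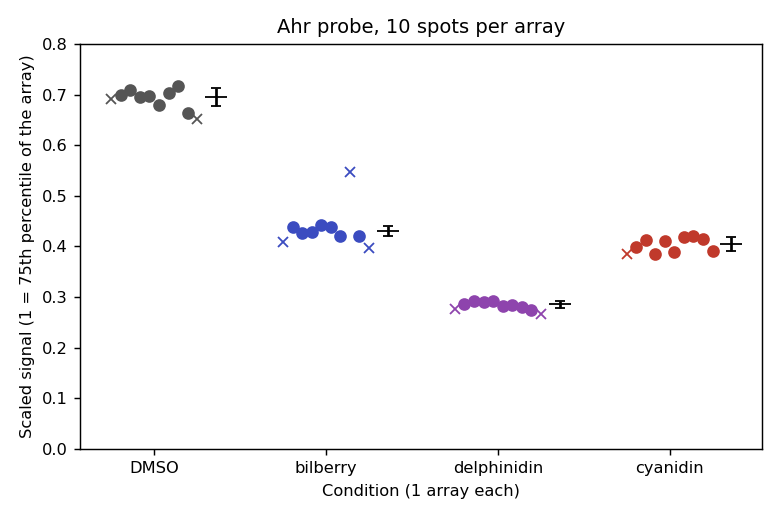
Scaled signal of each of the 10 Ahr spots per array (points, in order of their row on the array), with crosses for spots marked as outliers and a bar for the mean ± SD of the unmarked spots. The DMSO spots lie between 0.652 and 0.717, all delphinidin spots at 0.293 or less, and the bilberry and cyanidin spots between these groups.

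Arnt, the partner with which the receptor binds DNA, had 4 probes on chromosome 3, all well above background on all arrays and none called. Its brightest probe (AK028546, chr3:95582414-95582473 of mm8) had a scaled signal of 2.09 ± 0.21 for DMSO, 2.35 ± 0.24 for bilberry, 1.83 ± 0.18 for delphinidin and 1.70 ± 0.17 for cyanidin, each with the software's error. The log2 ratios of the 4 probes ran from 0.08 to 0.17 for bilberry, from -0.50 to -0.07 for delphinidin and from -0.53 to -0.02 for cyanidin. All 4 were thus above DMSO with bilberry and below it with both anthocyanidins, but under spike-in scaling all 4 were below DMSO with bilberry, and 3 of 4 with delphinidin and 2 of 4 with cyanidin were above it. The brightest probe was also below DMSO with bilberry under normexp background correction before it was refitted, at -0.19, while the other 3 were at 1.13 (NM_009709), 1.76 (AK037762) and 0.85 (U14333). Quantile normalization put U14333 with delphinidin, and NM_009709 and U14333 with cyanidin, at 0.07 or less above DMSO. With bilberry no Arnt probe differed from DMSO by more than the software's error, which was 0.20 to 0.23. The lowest anthocyanidin ratios came from the dimmest probe (AK037762, chr3:95570545-95570604), at 0.0721 for DMSO, 0.0807 for bilberry, 0.0510 for delphinidin and 0.050 for cyanidin. The probe NM_009709 (chr3:95576047-95576473) was at 0.187, 0.201, 0.160 and 0.175 in this order, and U14333 (chr3:95580915-95580975) at 0.299, 0.317, 0.285 and 0.296. With 75th percentile scaling bilberry was the highest condition at all 4 Arnt probes, and the spread over conditions was narrowest at U14333.

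The repressors that the receptor induces did not behave alike in detection. Ahrr, which competes with the receptor for Arnt (NM_009644, chr13:74677120-74677166), did not pass the background test on any array, and its signal was a substitute value that the software gives to spots at background on all but the cyanidin array. Its intensity was 2.74 for DMSO, 2.70 for bilberry, 2.26 for delphinidin and 4.07 for cyanidin, and the dimmest probe that passed the background test had 10.9 to 13.0, depending on the array, so no ratio is given. Tiparp, an enzyme that attaches ADP-ribose to the receptor (NM_178892, chr3:65642756-65642815), was well above background on all arrays. Its scaled signal was 4.76 ± 0.48 for DMSO, 6.77 ± 0.68 for bilberry, 5.50 ± 0.55 for delphinidin and 6.54 ± 0.65 for cyanidin. DMSO was lowest and bilberry highest, with log2 ratios of 0.51 ± 0.20, 0.21 ± 0.20 and 0.46 ± 0.20. None passed 2-fold, and each was larger than the software's error, as was the case in the same direction for 42.1%, 19.8% and 22.0% of all probes compared. Under spike-in scaling the bilberry value was -1.02, and under normexp background correction, before it was refitted, it was -0.03.

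Of the 3 P450 enzymes, Cyp1b1 was detected on all arrays and Cyp1a1 and Cyp1a2 on none. Cyp1b1 had the probe NM_009994 (chr17:79615533-79615592), with a scaled signal of 24.1 ± 2.4 for DMSO, 23.6 ± 2.4 for bilberry, 18.8 ± 1.9 for delphinidin and 24.1 ± 2.4 for cyanidin. Delphinidin was the lowest, at a log2 ratio of -0.36 ± 0.20, and bilberry and cyanidin were within the software's error of DMSO at -0.03 and 0.00. The other Cyp1b1 probe (AK016699, chr17:79609904-79609963) was dimmer, at 0.186 for DMSO, 0.151 for bilberry, 0.147 for delphinidin and 0.177 for cyanidin. Its log2 ratios were -0.31, -0.34 and -0.07, so both probes were below DMSO by more than the software's error with delphinidin, and only the dimmer was with bilberry. No value passed 2-fold. Under spike-in scaling the delphinidin values were -0.10 and -0.08 and the bilberry values -1.56 and -1.83, and the dimmer probe with bilberry was at 1.1 under normexp background correction and -0.03 after its refit. The brighter probe with bilberry was at -0.65 under normexp before its refit, -0.09 after it and -0.29 under quantile normalization.

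Cyp1a1, the classical marker of receptor activation, had 1 probe (NM_009992, chr9:57501865-57501924), and Cyp1a2, its neighbour on the chromosome and chiefly a liver enzyme, had 2 (both NM_009993, at chr9:57478390-57478449 and chr9:57479193-57479842). The Cyp1a1 intensity was 2.69 for DMSO, 2.67 for bilberry, 2.23 for delphinidin and 2.29 for cyanidin. At the first Cyp1a2 probe it was 2.83, 2.75, 2.33 and 2.37 in the same order of conditions, and at the second 2.79, 2.74, 2.67 and 2.35. None of these spots was well above background, and all but 1 (the second Cyp1a2 probe with delphinidin) carried the software's substitute value. A difference in Cyp1a1 or Cyp1a2 below the detection limit of these arrays could therefore not be seen, and absence of their RNA is not shown.

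Aldh3a1, which oxidizes aromatic and lipid aldehydes, was the member with the largest ratio. Its only probe (A_51_P310594, NM_007436, chr11:61031763-61032493) had an intensity of 4.71 for DMSO, 45.4 for bilberry, 82.4 for delphinidin and 59.0 for cyanidin. On the scaled signal these were 0.0055, 0.0788 ± 0.0092, 0.0817 ± 0.0085 and 0.0580 ± 0.0063. The DMSO spot was not well above background and the 3 treated spots were, so each ratio is a lower bound against the dimmest probe that passed the background test on the DMSO array, and the gene could enter the comparison only through its treated arrays. Aldh3a1 was at least 5.22-fold higher with bilberry, at least 5.41-fold higher with delphinidin and at least 3.84-fold higher with cyanidin. The measured log2 ratios were 3.85, 3.90 and 3.41, with software errors of 0.91 to 0.92 that are set by the dim DMSO spot. Under spike-in scaling the bounds were 1.81, 6.47 and 4.51. After the refitted normexp background correction, which adds an offset of 50, the log2 ratios were 1.21, 0.91 and 0.60, so the calls with delphinidin and cyanidin ended. Of 39373 probes with a value on all arrays, 155 (0.394%) shared this pattern of detection. In all, 63 of 23507 probes (0.268%) were called higher in all 3 treatments, and 1.73% were called lower in all 3; Aldh3a1 was the only member called in all 3, as higher. All of this rests on 1 spot per array, and the bright spots were only about 45 to 82 units above background.

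**Figure D3:**
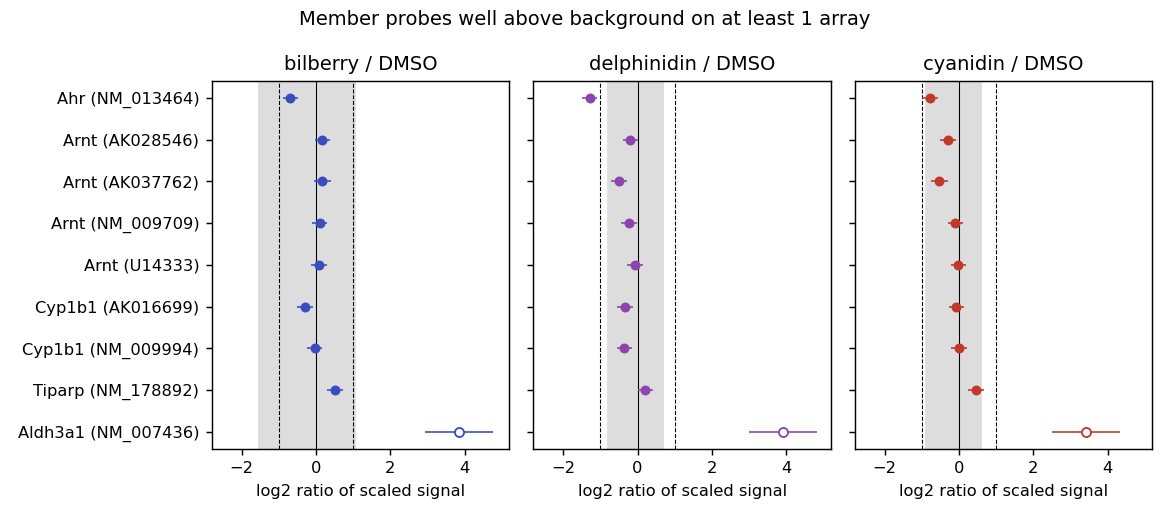
Log2 ratio to DMSO of the 9 probes detected on 3 or 4 arrays, with the software's error as bars, dashed lines at a 2-fold ratio and a grey band from the 5th to the 95th percentile of all probes compared. The open Aldh3a1 point rests on a DMSO spot that was not well above background, so its ratio is a bound in the text. Ahr leaves the band with delphinidin at -1.29, and Aldh3a1 lies above it in all 3 panels.

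Delphinidin and cyanidin are both anthocyanidins, and delphinidin carries 1 hydroxyl group more on its B ring. They were given at the same dose for the same time, so their arrays were compared directly. None of the 9 probes passed 2-fold between them, beside 4.61% of all 25337 probes (2.66% higher and 1.94% lower with delphinidin). Ahr was lower with delphinidin, at a log2 ratio over cyanidin of -0.51 ± 0.20, and the printed positions ran from -0.60 to -0.41. Cyp1b1 was also lower with delphinidin at both probes, at -0.36 ± 0.20 and -0.27 ± 0.21, and Tiparp was at -0.25 ± 0.20. Aldh3a1 was higher with delphinidin, at 0.49 ± 0.22. The 4 Arnt probes were between -0.14 and 0.11, within the software's error of 0.20 to 0.22. In all, 5 of the 9 probes differed by more than that error, beside 34.3% of all probes, and with 1 array per compound this does not separate the compounds from their cultures. Bilberry extract was given by weight and was left out of this comparison.

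The wider receptor pathway was read from a list of 57 genes written from general knowledge, with earlier results of these data known. The list included the 8 above, and each gene was represented by its brightest probe. Values on all 4 arrays were found for 55 genes. With bilberry 4 of 43 genes compared were higher and 2 lower, beside 6.38% and 10.1% of all genes. With delphinidin 4 of 45 were higher and 2 lower, beside 3.01% and 3.68%, and with cyanidin 3 of 45 were higher and 1 lower, beside 2.48% and 4.45%. Aldh3a1, not detected with DMSO, and Cyp2s1, detected with DMSO alone, could enter only through the side where they were high. With both arrays required to pass the background test, 4, 4 and 2 list genes were called, in place of 6, 6 and 4. The share of all genes under that filter is not given. The median log2 ratio of the list was 0.12, 0.12 and 0.08, beside 0.14, -0.04 and -0.02 over all genes.

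Among the genes that hold and carry the receptor, none but the receptor itself passed 2-fold. Of the receptor complex, 6 of 7 genes had a value and only Ahr was called, with delphinidin. Hsp90ab1, a chaperone that holds the receptor, had log2 ratios of -0.16, 0.06 and 0.13 in the order bilberry, delphinidin and cyanidin, and Xpo1, the nuclear exporter, was at 0.38, 0.27 and 0.24. Of the partners and coregulators, 10 of 12 were compared and 1 was called at its brightest probe. This was Ep300, a histone acetyltransferase, at 0.103 for DMSO, 0.0512 for bilberry, 0.0882 for delphinidin and 0.0669 for cyanidin, which is a bilberry log2 ratio of -1.01, just past the threshold. It was 1.57 under normexp background correction and -0.18 after its refit. The ratio was -0.98 under quantile normalization and -0.98 when scaled to the median of bright probes, so the call as lower ended under each of these. Under spike-in scaling the bilberry ratio of the brightest probe was -2.54, and the call held. Another Ep300 probe, with a value only when marked spots were kept, was at -0.38 with bilberry. The remaining Ep300 probes were well above background on no array, so no ratio is given for them. A dimmer probe of Ncoa7, a nuclear receptor coactivator, was at -1.94 with bilberry, where its brightest was at -0.49, and the refitted normexp correction turned the dimmer probe to 0.26. Of the enzymes that make tryptophan ligands, only Il4i1 was well above background on all arrays, at 0.241, 0.207, 0.169 and 0.199 in the order DMSO, bilberry, delphinidin and cyanidin, and it was not called. Tdo2, tryptophan dioxygenase, was well above background with delphinidin and cyanidin alone, at 0.0140, 0.0196, 0.0253 and 0.0257 in the same order, or at least 1.68-fold higher with delphinidin and at least 1.70-fold higher with cyanidin, and was not called at this probe. The other Tdo2 probe was well above background with cyanidin alone, so no fold is given for it. Its measured cyanidin log2 ratio of 1.61 passed the rule for a call, and it was -0.08 under normexp background correction and its refit. The brightest probes of Ido1, Ido2, Kynu and Kmo were detected on no array.

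The list's phase II group holds conjugating enzymes and, with them, Aldh3a1, the hydrolase Ephx1 and the reductase Nqo1. Of 9 with a value, 3 of 8 compared were called higher with bilberry (Aldh3a1, Ephx1 and Sult1a1), 3 of 9 with delphinidin (Aldh3a1, Gsta1 and Sult1a1) and 2 of 9 with cyanidin (Aldh3a1 and Sult1a1), beside 6.38%, 3.01% and 2.48% of all genes, and 0 were called lower. Aldh3a1 entered each of these counts only through its treated array, where it was high, so its calls say nothing about the group. The group's median log2 ratio, Aldh3a1 included, was 0.76 with bilberry, beside 0.14 over all genes, and no test of the group was made. For delphinidin and cyanidin no median is given, because Gsta2, whose DMSO spot was not well above background, lies at or next to it. Sult1a1, a sulfotransferase of phenols, had a scaled signal of 0.244 for DMSO, 0.488 for bilberry, 0.624 for delphinidin and 0.687 for cyanidin, and was called in all 3 treatments with log2 ratios of 1.00, 1.36 and 1.49. Ephx1, the microsomal epoxide hydrolase, had 0.810, 2.29, 1.5 and 1.51, with log2 ratios of 1.5, 0.89 and 0.90 at its brightest probe and 1.56, 0.81 and 0.83 at its other probe. Gsta1, a glutathione transferase, was dim at 0.0372, 0.0604, 0.0745 and 0.0686, and its delphinidin log2 ratio of 1.00 was at the threshold. Ugt1a6b, a glucuronidating enzyme that shares exons with other Ugt1a genes, so its probes may read several of them, was at 0.82, 0.31 and 0.63 and was not called at its brightest probe, while its dimmer probe was at 1.42, 0.61 and 0.78. For bilberry this dimmer probe gave 0.59 after the refitted normexp correction and -0.11 under spike-in scaling. Nqo1, a quinone reductase and a classical member of the receptor's gene battery, was at -0.11, 0.14 and 0.23. Under spike-in scaling the bilberry log2 ratios of Sult1a1, Gsta1 and the brightest Ephx1 and Ugt1a6b probes were -0.53, -0.83, -0.03 and -0.71, and the anthocyanidin ratios of these genes were larger than with 75th percentile scaling. The brightest Ephx1 probe then passed 2-fold with delphinidin (1.15) and cyanidin (1.13). Gsta1 with cyanidin also passed it, at 1.12, and was at 1.07 under quantile normalization. Normexp background correction and its refit put Gsta1 at 0.38 with delphinidin, which ended its call, and at 0.25 and 0.26 with cyanidin. They put the dimmer Ugt1a6b probe at -0.11 with delphinidin and at -0.015 and -0.016 with cyanidin. The refit also put Sult1a1 with bilberry at 0.87, below 2-fold. A gene stands in this group because it has been reported as a target, and the arrays measured no action of the receptor on it.

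**Figure D4:**
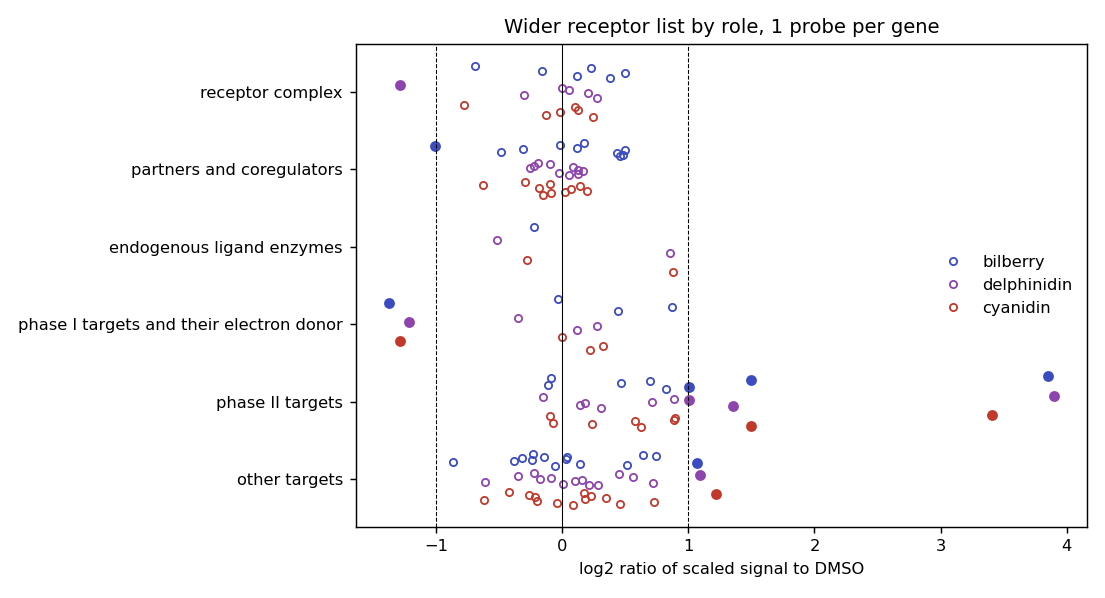
Log2 ratio to DMSO of the genes of the wider receptor list by role, 1 probe per gene, with filled points for genes called past 2-fold (dashed lines) and open points for genes that were not. Filled points to the right lie mostly among the phase II targets, where those of Aldh3a1 rest on a DMSO spot not well above background. The filled point of the receptor complex at -1.29 is Ahr with delphinidin.

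Among the oxidizing, or phase I, genes outside the members, Por, which passes electrons to P450 enzymes, had log2 ratios of 0.87, 0.27 and 0.32, with -0.66 for the bilberry array when scaled to spike-ins. Cyp2s1, another P450 gene, was well above background with DMSO alone, at 0.0153, and was called lower in all 3 treatments, with measured log2 ratios of -1.38, -1.22 and -1.29. As bounds it was at least 1.42-fold lower with both delphinidin and cyanidin, and no fold is given for bilberry. After normexp background correction its log2 ratios were 2.34, -0.43 and -0.29, and 0.33, -0.43 and -0.29 after the refit, so none of these calls held, and under spike-in scaling delphinidin was at -0.96. Its other probe was well above background on no array, so no ratio is given for it. Of 14 other reported targets compared, Slc7a5, an amino acid transporter, was called with bilberry at 1.07, and was at 0.72 with both anthocyanidins. The bilberry call ended under quantile normalization (0.98), normexp background correction (0.65), its refit (0.99) and spike-in scaling (-0.46). Ccl2, a chemokine, was called with delphinidin at 1.09 and cyanidin at 1.22, and its bilberry ratio was 0.74 (-0.79 under spike-in scaling). The other 12 were not called in any treatment.

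The genes whose ratios to DMSO were most like those of Ahr, by the root mean square difference of 3 log2 ratios, were Prcp (0.035), Lmcd1 (0.038) and Dtx4 (0.086), out of the 21444 probes that passed the background test on every array. Within 0.1 of Ahr there were 6 probes. Of the other members with a brightest probe detected on every array (Arnt, Cyp1b1 and Tiparp), Tiparp had the widest range over conditions at that probe, and the genes most like it were Ivd (0.016), Lpin2 (0.020) and Prmt5 (0.020), and 322 probes lay within 0.1. Likeness over 3 ratios that share 1 DMSO array is a description and carries no test.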

How the data were processed

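RNA of 3T3-L1 cells was labeled with 1 dye and hybridized to Agilent Whole Mouse Genome arrays, 1 per condition. The authors deposited the output of Feature Extraction 9.5.1.1, in which the processed signal is an intensity after background subtraction and detrending, with a substitute value at spots at background. A deposited table of the series holds the same intensity, with a largest relative difference of 0. Signals were divided by the 75th percentile of the 43379 non-control spots of their array and taken to log2. The software's outlier marks removed 701 to 875 spots from an array, and the remaining spots of each probe were averaged. Genes were named as in the files, with 24375 of 41174 probes also matched by RefSeq accession (GRCm38.p6), and probes are placed on mm8 as the files place them. The members, lists and settings were chosen with earlier results of these data known. Named genes are the members, list genes called in any treatment and the 3 genes most like Ahr and the member with the widest range, and other list genes are given as examples. Conditions had 1 array each, so they were not tested against each other, and precision is limited by that number. Alternatives were 2 detection filters, thresholds of 1.5 and 3, normexp background correction with an offset of 50 and a refit of it, quantile normalization, scaling to the median of bright probes or to spike-in controls, marked spots kept and the deposited table. The rule for calls was checked on simulated data with planted changes. Python 3.11.15, numpy 2.4.6, pandas 2.3.3, matplotlib 3.10.9, R 4.3.3 and limma 3.58.1 were used.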

Additional observations from a re-analysis of the deposited data

How the results depend on the processing

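These results are limited by 1 array per condition, by the dim signal of Aldh3a1 and, for bilberry, by the scaling. No paired analysis was possible because each condition has 1 array. The main counts of called member probes were 1 with bilberry, 2 with delphinidin and 1 with cyanidin, and those of wider list genes were 6, 6 and 4. When a probe had to be well above background on both arrays, which removes Aldh3a1, the member counts were 0, 1 and 0. The list counts were then 4, 4 and 2. A threshold of 1.5 gave member counts of 2 with bilberry and with cyanidin, and list counts of 13, 11 and 12. A threshold of 3 gave a member count of 1 with delphinidin and list counts of 1, 1 and 1. Normexp background correction, whose offset of 50 is close to the signal of Aldh3a1, gave member counts of 4, 1 and 0, list counts of 10, 3 and 2 and a bilberry median of 0.85. On the bilberry array its fitted background mean was -344.9, against -6.15 to -3.88 on the rest, and it was -5.65 after the refit. After the refit the member counts with delphinidin and cyanidin were 1 and 0, and the list counts were 2, 3 and 2. Under the refit the Aldh3a1 log2 ratios were 1.21, 0.91 and 0.60. Spike-in scaling gave 9 called member probes and 35 list genes with bilberry and 7 list genes with cyanidin, and medians of -1.43, 0.027 and 0.16. Quantile normalization, the median of bright probes, marked spots kept, no detection filter and the deposited table left all of these counts within 1.5 times and the medians within 0.2. No log2 ratio of Ahr or Aldh3a1 changed sign under these alternative treatments of the signal. The Ahr log2 ratio ran from -2.22 to -0.14 with bilberry, the latter under normexp before its refit, from -1.29 to -1.03 with delphinidin and from -0.78 to -0.55 with cyanidin.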
